A study of Mus musculus with 15 samples.

Results

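The haemoglobin genes of adult mouse red cells, Hba-a1, Hba-a2, Hbb-bs and Hbb-bt, were examined together with Alas2 as a readout of blood RNA in brain tissue. These 5 genes were chosen by symbol, and all 5 were found among the 19261 genes that had a value in every mouse and among the 17714 genes tested. RNA from mixed corpus callosum and neocortex of 15 wild-type mice was sequenced, with 5 mice in each of 3 groups. Siponimod mice had eaten cuprizone at 0.25% (w/w) for 3 weeks and were given siponimod at 3.125 mg/kg, a modulator of sphingosine 1-phosphate receptors. Vehicle mice had the same 3 weeks of cuprizone, a copper chelator that kills oligodendrocytes, without siponimod. Control mice were on standard chow and untreated, and no vehicle is named for them. The sources used here do not give the strain, the age or any perfusion of the mice.

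Haemoglobin is a tetramer of alpha and beta chains, each holding a haem group, and red cells are filled with it. Young red cells (reticulocytes) still carry globin mRNA, so blood left in the vessels of a dissected tissue brings globin transcripts into its RNA, although low globin expression has also been reported in neurons and glia. Alas2 encodes the red-cell form of 5-aminolevulinate synthase, the rate-limiting enzyme of haem synthesis, and is an erythroid gene in its own right.

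Each chain is encoded by a pair of adult genes that are almost the same. On GRCm38 (GENCODE M21) the alpha genes Hba-a1 (ENSMUSG00000069919, chr11:32283511-32284465) and Hba-a2 (ENSMUSG00000069917, chr11:32296489-32297298) lie on the plus strand. The beta genes Hbb-bs (ENSMUSG00000052305, chr7:103826534-103828096) and Hbb-bt (ENSMUSG00000073940, chr7:103812524-103813996) lie on the minus strand. Alas2 (ENSMUSG00000025270, chrX:150547375-150570638) is on the plus strand of the X chromosome. The alpha coding sequences, 429 bases each, differed at 1 base (C381T from Hba-a1 to Hba-a2, counted from the A of the start codon), and the beta coding sequences, 444 bases each, also at 1 base (C417T from Hbb-bs to Hbb-bt). The 60-base stretches around these positions are shown because they hold the whole coding difference between the copies, with the base that differs in capitals.
Hba-a1: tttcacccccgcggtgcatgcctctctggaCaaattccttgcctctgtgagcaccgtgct
Hba-a2: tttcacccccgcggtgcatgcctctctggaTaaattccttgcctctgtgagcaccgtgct
Hbb-bs: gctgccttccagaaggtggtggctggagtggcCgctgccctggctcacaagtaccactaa
Hbb-bt: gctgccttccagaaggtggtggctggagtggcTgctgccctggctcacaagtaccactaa
Outside the untranslated ends, a read can be assigned to a copy only where it covers that base, so the split between copies is uncertain, and the sums Hba-a1 + Hba-a2 (alpha) and Hbb-bs + Hbb-bt (beta) are given beside the single genes.

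The promoters of the globin genes also share their letters. The 120 bases before the RefSeq start (GRCm38.p6) were searched on both strands for the CACCC box of Krüppel-like factors, the CCAAT box of the factor NF-Y, the GATAA letters of GATA factors and the TATAA box of the TATA-binding protein. Matches are in capitals below. A match on the other strand reads GGGTG for the CACCC box, ATTGG for the CCAAT box and TTATC for the GATAA letters, and the CCAAT matches of Hbb-bt on both strands lie end to end.
Hba-a2, chr11:32296372-32296491, plus strand: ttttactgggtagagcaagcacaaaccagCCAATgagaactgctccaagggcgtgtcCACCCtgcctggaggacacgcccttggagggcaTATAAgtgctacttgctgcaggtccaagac
Hbb-bs, chr7:103827929-103828048, minus strand: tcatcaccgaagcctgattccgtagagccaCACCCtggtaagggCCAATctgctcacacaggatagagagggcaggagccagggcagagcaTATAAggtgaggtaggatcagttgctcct
Hbb-bt, chr7:103813924-103814043, minus strand: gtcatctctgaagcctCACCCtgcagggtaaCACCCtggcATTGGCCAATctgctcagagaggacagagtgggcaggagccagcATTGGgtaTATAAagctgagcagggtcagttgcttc
Alas2, chrX:150547297-150547416, plus strand: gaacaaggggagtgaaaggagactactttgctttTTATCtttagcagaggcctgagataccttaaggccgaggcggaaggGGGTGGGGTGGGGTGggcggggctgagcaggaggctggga
The Hba-a1 window was the Hba-a2 window moved by 3 bases, with 117 of 117 compared bases identical, whereas 88 of 119 bases matched between Hbb-bs and Hbb-bt. All 4 globin promoters held the CACCC box, the CCAAT box and the TATAA box, and 0 of 4 held the GATAA letters in this window. Alas2 held the CACCC box in 3 adjoining copies and the GATAA letters in 1, and neither of the other boxes. Among 32817 mouse promoter windows of this length, 31.7% held the CACCC box, 21.3% the CCAAT box, 10.5% the GATAA letters and 11.9% the TATAA box. The GENCODE starts differ from the RefSeq starts used here.

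Levels are given as deposited TPM, a transcript abundance scaled by transcript length and library, so genes can be compared within a mouse. This scaling assumes reads along the whole transcript. The labels name a total RNA kit and a heading in the files a 3 prime analysis, and under the second, levels between genes, copy shares and the alpha to beta ratio would carry a length error that was not tested. Hba-a2, the more abundant alpha copy, had 37.6, 81.9, 63.6, 72.9 and 160.3 TPM in siponimod mice 1 to 5, 97.3, 73.5, 87.0, 77.0 and 188.8 TPM in vehicle mice 1 to 5, and 49.7, 41.9, 6.84, 38.0 and 58.4 TPM in control mice 1 to 5. Hba-a1 had 15.5, 28.7, 27.6, 22.8 and 64.3 TPM in siponimod mice, 41.3, 24.1, 31.7, 26.6 and 74.6 TPM in vehicle mice, and 20.3, 18.9, 2.6, 12.4 and 21.4 TPM in control mice. For both alpha genes every vehicle mouse was above every control mouse, 4 of 5 siponimod mice were above every control mouse, and siponimod and vehicle mice overlapped.

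Hbb-bs, the main beta gene, had 40.4, 76.8, 62.9, 64.9 and 171.2 TPM in siponimod mice, 131.3, 59.8, 74.4, 72.1 and 188.2 TPM in vehicle mice, and 47.9, 47.6, 5.31, 32.5 and 56.3 TPM in control mice. Hbb-bt, the minor beta gene, had 8.02, 8.12, 7.77, 7.98 and 19.6 TPM in siponimod mice, 22, 8.06, 9.09, 11.1 and 19.0 TPM in vehicle mice, and 3.20, 5.89, 0.688, 5.57 and 5.69 TPM in control mice. Hbb-bs repeated the pattern of the alpha genes, and for Hbb-bt all 5 siponimod mice as well as all 5 vehicle mice lay above every control mouse. Such a gap between groups, with every mouse above every control mouse, was seen in 0.965% of tested genes for vehicle against control and in 2.74% for siponimod against control. With libraries scaled to a common median gene the same gaps held for the same genes, and the shares of all tested genes were 2.68% and 2.7%.

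**Figure D1:**
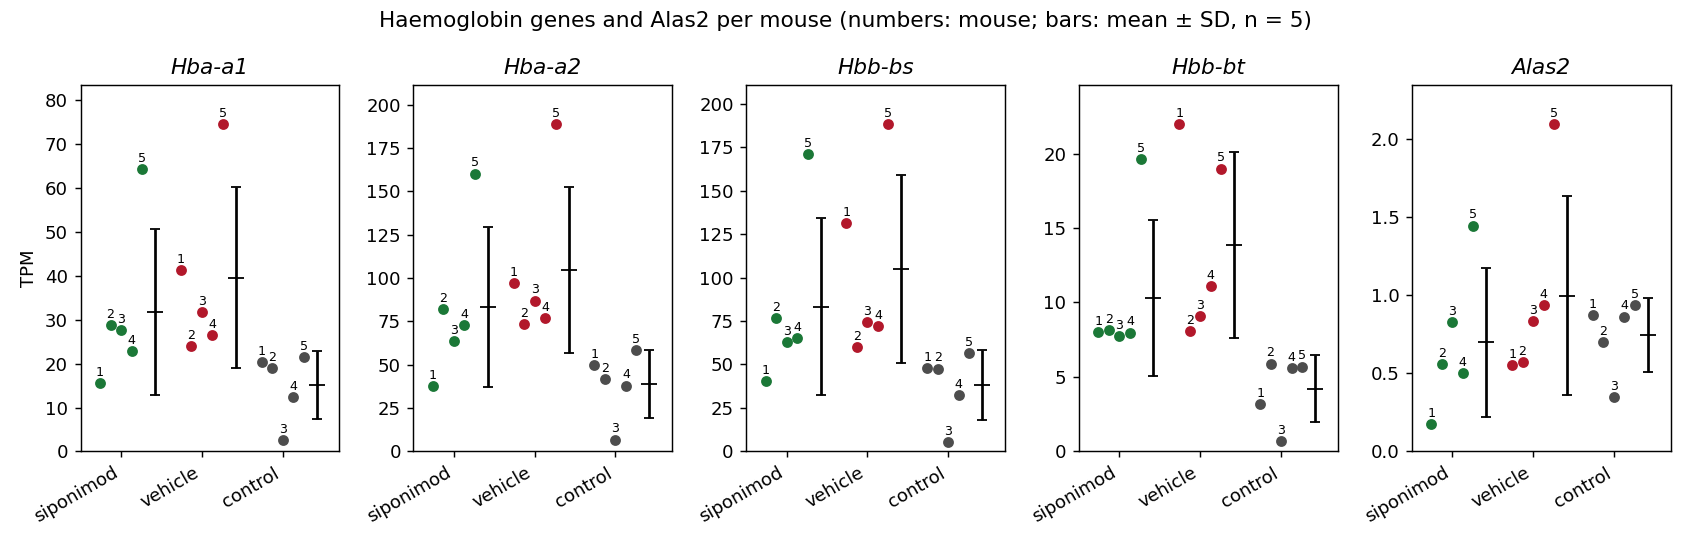
Each panel plots the TPM of a gene (y axis, linear, from 0) in the siponimod, vehicle and control mice, with points labelled by mouse number and black bars for the mean ± SD of 5 mice. For the 4 globin genes all vehicle mice lie above all control mice, control mouse 3 is the lowest of all 15 mice, and Alas2 overlaps between all groups.

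Alas2 was far lower and did not separate the groups. It had 0.172, 0.557, 0.826, 0.501 and 1.45 TPM in siponimod mice, 0.552, 0.571, 0.833, 0.939 and 2.10 TPM in vehicle mice, and 0.875, 0.698, 0.349, 0.863 and 0.938 TPM in control mice. Only 2 vehicle mice and 1 siponimod mouse exceeded the highest control mouse. Siponimod mouse 1, not control mouse 3, had the lowest Alas2 of all mice.

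Summed over copies, alpha transcripts averaged 115.0 ± 64.8 TPM in siponimod mice, 144.4 ± 68.4 TPM in vehicle mice and 54.1 ± 27.2 TPM in control mice (SD, n = 5 each). Beta transcripts averaged 93.6 ± 55.9 TPM in siponimod mice, 119.0 ± 59.4 TPM in vehicle mice and 42.1 ± 22 TPM in control mice. All 4 genes together made up between 0.00155% of a library's TPM in control mouse 3 and 0.0473% in vehicle mouse 5. In bulk RNA, fewer cells of a type and less RNA per cell cannot be told apart, so these sums do not separate the number of red cells from the globin mRNA in each.

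The ratio of alpha to beta transcripts ranged from 0.904 to 1.57 over the 15 libraries, while the sums varied by a factor of 27.9 (alpha) and 34.5 (beta). It was 1.10, 1.30, 1.29, 1.31 and 1.18 in siponimod mice, 0.904, 1.44, 1.42, 1.25 and 1.27 in vehicle mice, and 1.37, 1.14, 1.57, 1.32 and 1.29 in control mice. Vehicle mouse 1 was the single library with more beta than alpha. Group means were 1.24 ± 0.0948 in siponimod mice, 1.26 ± 0.215 in vehicle mice and 1.34 ± 0.159 in control mice (SD, n = 5 each). The log2 ratio differed by -0.01 between siponimod and vehicle mice, by -0.10 between vehicle and control mice and by -0.11 between siponimod and control mice. Exact two-sided permutation tests gave p = 0.984, 0.548 and 0.246 for these 3 differences, with adjusted p of 0.984, 0.616 and 0.443 over the 9 comparisons of ratio, alpha sum and beta sum. Each of these p-values is the share of arrangements of the mice between the 2 groups with at least as large a difference. They rest on the spread between these mice.

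**Figure D2:**
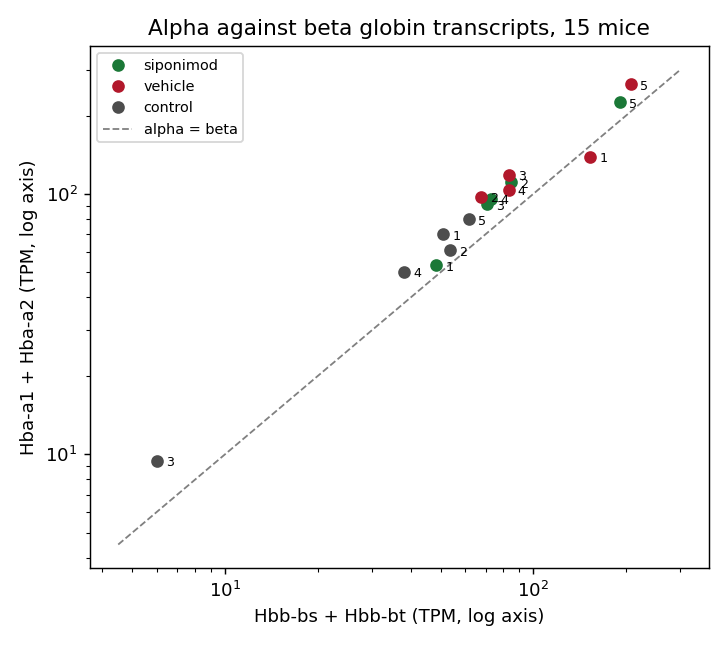
Summed alpha transcripts (y axis) are plotted against summed beta transcripts (x axis) in TPM on log axes for 15 mice, labelled by mouse number, with a dashed line at equal levels. The points follow the line from control mouse 3 (9.45 and 6.0 TPM) to vehicle mouse 5 (263.4 and 207.2 TPM), and vehicle mouse 1 alone lies below it.

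Alpha and beta sums moved together from mouse to mouse. Over all 15 mice the log2 sums had Pearson's r of 0.990 and Spearman's rho of 0.982 (permutation p = 1e-05 for each, the smallest that 100000 permutations give, and 2e-05 after adjustment over 2 relations). Without control mouse 3 and vehicle mouse 5, the mice farthest from the median, r was 0.961, and for deviations from the group means it was 0.983. Both sums come from the same libraries and share their scaling.

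The shares of the copies varied less than the levels. Hba-a2 made up 69.7% to 76.2% of alpha transcripts in siponimod mice, 70.2% to 75.3% in vehicle mice and 68.9% to 75.4% in control mice. Hbb-bt made up 9.57% to 16.6% of beta transcripts in siponimod mice, 9.17% to 14.3% in vehicle mice and 6.26% to 14.6% in control mice. The 3 groups overlapped in both shares, and siponimod mouse 1 and control mouse 1 marked the ends of the Hbb-bt range.

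**Figure D3:**
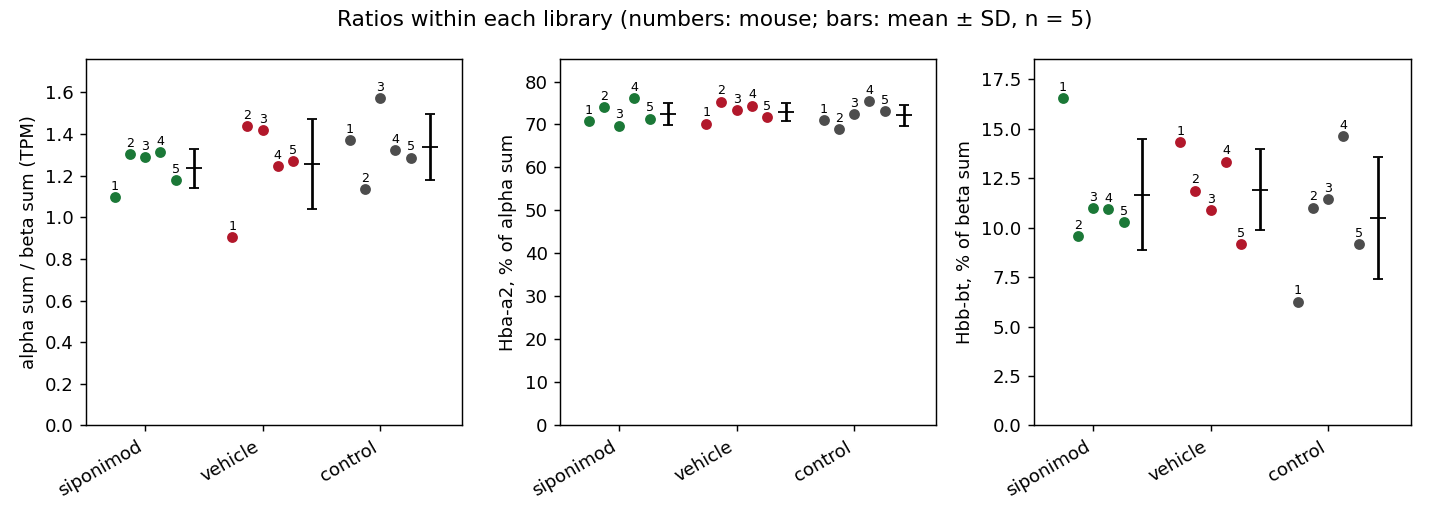
The 3 panels plot, for each mouse, the ratio of summed alpha to summed beta TPM, Hba-a2 as a percentage of the alpha sum and Hbb-bt as a percentage of the beta sum, with black bars for the mean ± SD of 5 mice. All groups overlap in each panel, with vehicle mouse 1 the lowest ratio (0.904).

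For the effect of cuprizone alone, vehicle mice were set against control mice. No member passed the test across all genes: 0 of 5 had a limma adjusted p under 0.05, where 0.423% of tested genes were called higher. The log2 fold changes of log2(TPM + 0.5), relative to the median gene, were 1.73 for Hba-a1 (95% interval 0.66 to 2.79, limma adjusted p = 0.275) and 1.82 for Hba-a2 (0.76 to 2.87, adjusted p = 0.213). They were 1.88 for Hbb-bs (0.71 to 3.05, limma adjusted p = 0.275) and 1.94 for Hbb-bt (1.01 to 2.86, adjusted p = 0.0788). All 4 globin genes had an unadjusted limma p between 0.00121 and 0.00824, and 2.13% of tested genes were higher at an unadjusted p under 0.05. Alas2 differed by 0.42 (-0.18 to 1.02, limma adjusted p = 0.634), a value that the pseudocount makes smaller at these low levels. The median over the 5 genes was 1.82, against 0 for all genes by construction, after a shift of the median gene of -0.21 was removed. All limma p-values, here and below, test the fold changes before this shift was removed, not the relative values printed beside them.

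The sums over copies were also compared as single values. The mean log2 alpha sum was higher by 1.62 in vehicle than in control mice, a 3.07-fold ratio of geometric means, and the mean log2 beta sum by 1.72, a 3.29-fold ratio. Each had an exact two-sided permutation p of 0.00794, the smallest that 252 arrangements give, and an adjusted p of 0.0357 over the 9 comparisons, with 5 of 5 vehicle mice above all control mice. These genes were chosen with earlier results known, and this adjustment does not cover all genes tested. The sizes leaned on control mouse 3: without it the differences were 1.06 (alpha) and 1.10 (beta), both with an adjusted p of 0.0714 in the exact permutation test. With any 1 of the 5 vehicle mice left out, adjusted exact p lay between 0.0714 and 0.0952, although every remaining vehicle mouse was still above every control mouse.

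For cuprizone with siponimod, siponimod mice were set against control mice. Again 0 of 5 members were called by limma, where 0.209% of tested genes were called higher. The relative log2 fold changes were 1.15 for Hba-a1, 1.21 for Hba-a2, 1.29 for Hbb-bs and 1.32 for Hbb-bt, with limma adjusted p between 0.452 and 0.897. Alas2 was at -0.12 (95% interval -0.72 to 0.48, limma adjusted p close to 1). The alpha sum was higher by 1.23 (exact permutation p = 0.0556, adjusted p = 0.125) and the beta sum by 1.34 (p = 0.0317, adjusted p = 0.0952), with 4 of 5 siponimod mice above all control mice. Unadjusted limma p for the 4 globin genes lay between 0.00817 and 0.0340, and 2.66% of tested genes were higher at an unadjusted p under 0.05. Both comparisons use the same control mice, control mouse 3 included. Without that mouse the alpha sum differed by 0.68 and the beta sum by 0.73. In the limma fit without it, the globin genes were at 1.21 to 1.49 for vehicle against control and at 0.64 to 0.87 for siponimod against control.

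For the effect of siponimod under cuprizone, siponimod mice were set against vehicle mice. Limma called 0 of 5 members and 0.0% of tested genes. At an unadjusted p under 0.05 were 0 of 5 members and 874 of 17714 tested genes. Relative log2 fold changes were -0.56 for Hba-a1 (95% interval -1.63 to 0.50), -0.60 for Hba-a2 (-1.66 to 0.45), -0.58 for Hbb-bs (-1.75 to 0.59), -0.61 for Hbb-bt (-1.54 to 0.32) and -0.53 for Alas2 (-1.13 to 0.07). Their limma adjusted p, for values before a shift of the median gene of 0.21 was removed, lay between 0.508 and 0.666. The intervals include both no difference and a decrease. The alpha sum differed by -0.39 and the beta sum by -0.38, with adjusted p of 0.5 and 0.541 in exact permutation tests. The size depended on single mice. The globin genes were at -0.43 to -0.25 without vehicle mouse 1, -0.55 to -0.35 without siponimod mouse 1, -0.53 to -0.36 without vehicle mouse 5 and -0.90 to -0.87 without siponimod mouse 5. Without both vehicle mouse 1 and siponimod mouse 1 they were at -0.19 to -0.08.

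**Figure D4:**
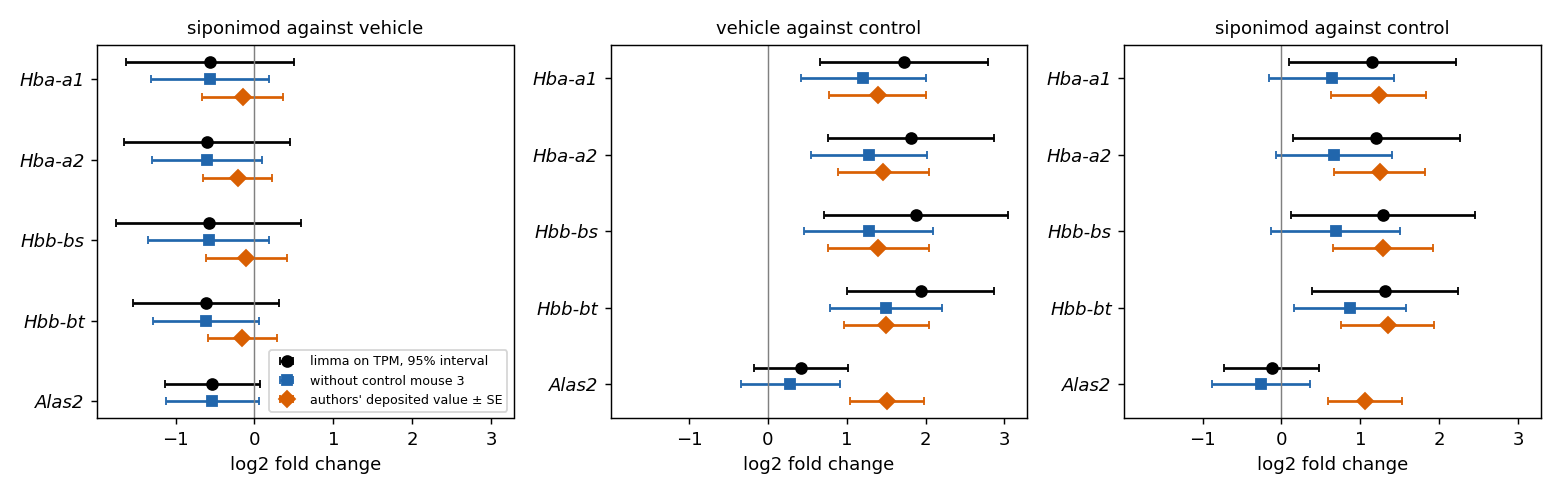
Log2 fold changes (x axis) of the 5 genes are plotted for siponimod against vehicle, vehicle against control and siponimod against control. Black circles are limma values relative to the median gene with 95% intervals, blue squares the same without control mouse 3, and orange diamonds the authors' deposited values ± SE, with no diamond for Alas2 in the first panel. The globin genes lie between 1.73 and 1.94 for vehicle against control with all mice, and the deposited value of Alas2 lies far from its TPM value.

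The authors' deposited table gives their own comparison of the same groups, but which mice entered its fold changes was not tested. For vehicle against control, the authors' deposited table lists log2 fold changes of 1.39 for Hba-a1, 1.46 for Hba-a2, 1.4 for Hbb-bs and 1.5 for Hbb-bt, with adjusted p of 0.206, 0.120, 0.230 and 0.0713. Alas2 stands at 1.51 ± 0.473 (SE) with an adjusted p of 0.0254 in the authors' deposited table, where 3.86% of 21288 genes were called higher. No other member was called in the authors' deposited table, and limma on TPM from all mice called none. For siponimod against control the authors' deposited table has the globin genes at 1.24 to 1.35 and Alas2 at 1.06 (adjusted p = 0.233), where 2.55% of genes were called higher. For siponimod against vehicle the authors' deposited table has the globin genes at -0.21 to -0.10 with adjusted p of 0.888 to 0.960, where 0.64% of genes were called lower. Alas2 has no row in that table, in which no gene has a mean level below 77.4.

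For Alas2 the authors' deposited table and the TPM disagree by more than they do for most genes. Without vehicle mouse 1 and siponimod mouse 1, the log2 ratio of mean TPM for Alas2 was 0.58 in vehicle against control mice, 0.94 below the value in the authors' deposited table, and 0.16 in siponimod against control mice, 0.90 below it. With these 2 mice left out, the 4 globin genes differed by at most 0.0437 between the same pair of sources in any comparison. With all mice the globin gaps reached 0.273 (Hbb-bt, siponimod against vehicle), and those of Alas2 were 1.09 for vehicle against control and 1.15 for siponimod against control. The globin gaps were smaller without the 2 mice, except for Hba-a1 in vehicle against control (0.0147 without them, -0.00046 with all mice). Whether the authors' fold changes leave these mice out was not tested. Of 5440 genes with a mean level of 5 to 50 in the authors' deposited table, 0.643% had a gap at least as large as that of Alas2 for vehicle against control, and the median gap was 0.0565. GENCODE lists 4 Alas2 transcripts of 485 to 2037 bases, among them a retained intron and a processed transcript. Whether the deposited TPM and fold change count these transcripts alike was not tested.

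Among libraries, vehicle mouse 1 stood apart over the whole transcriptome. Bc1, a short neuronal RNA, held 35.3% of all TPM there and 6.02% to 10.8% elsewhere, and its median tested gene was at 5.54 TPM, against 11.8 to 13 TPM. Relative to the other vehicle mice its genes were at a median of -0.89 log2 (quartiles -1.37 and -0.39). The 355 genes whose longest transcript is of globin length (554 to 703 bases) were at a median of -0.13 (quartiles -1.12 and 0.42). Hba-a1 was at 0.23, Hba-a2 at -0.01, Hbb-bs at 0.57, Hbb-bt at 0.94 and Alas2 at -0.53. The part of transcript length in these values was not tested. Without this mouse the vehicle against control fold changes of the globin genes were 1.5 to 1.64, with limma adjusted p of 0.0640 to 0.175. Without both vehicle mouse 1 and siponimod mouse 1, limma still called 0 of 5 members, where 1.95% of genes were called higher for vehicle against control and 0.811% for siponimod against control.

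Single mice carried much of the spread in globin RNA. Control mouse 3 was the lowest of all 15 mice for each globin gene, and the other 4 control mice averaged 7.01 times its Hba-a1, 6.87 times its Hba-a2, 8.67 times its Hbb-bs and 7.40 times its Hbb-bt. For Alas2 the other control mice averaged 2.42 times its level. In unscaled TPM the mouse numbered 5 had the highest Hba-a1, Hba-a2, Hbb-bs and Alas2 in all 3 groups. Its alpha sum was 2.56 times the mean of the other siponimod mice. It was 2.30 times that of the other vehicle mice and 1.68 times that of the other control mice. With libraries scaled to a common median gene, vehicle mouse 1 was above vehicle mouse 5 for Hba-a1 (88.3 against 68.6 TPM) and Hba-a2 (207.9 against 173.8 TPM). The same held for Hbb-bs (280.7 against 173.2 TPM) but not for Alas2 (1.18 against 1.93 TPM). The labels tie no shared handling to a mouse number.

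Globin and Alas2 levels were also set against each other mouse by mouse. Over 15 mice the log2 globin sum and log2(Alas2 TPM + 0.5) had Pearson's r of 0.616 (permutation p = 0.0213). Spearman's rho was 0.418 (permutation p = 0.125). The pseudocount of 0.5 was added to Alas2 alone and narrows its spread at these low levels, so each r here depends on it. Without control mouse 3 and vehicle mouse 5, the mice farthest from the median globin sum, r was 0.405. Without vehicle mouse 1 and siponimod mouse 1, r was 0.729 (permutation p = 0.00961) and rho 0.440 (permutation p = 0.136). For deviations from the group means over 15 mice r was 0.745. The globin sum per unit of Alas2 was 196 to 589 in siponimod mice, 199 to 529 in vehicle mice and 44.3 to 164 in control mice. In TPM neither cuprizone group overlapped the control mice in this ratio, which was computed after the values were seen. How often other genes show such a gap in a ratio to Alas2 was not tested. The gap also rests on the low TPM of Alas2, which disagree with the authors' deposited table. There the log2 fold change of Alas2 for vehicle against control, 1.51, was above those of all 4 globin genes. For siponimod against control it was 1.06, below all 4.

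Genes that red cells use besides the globins were read off the same fit. Of 29 listed genes of red cells and their precursors, 14 had TPM in every mouse and 13 were tested, and limma called 0 of the 13 in any comparison. Their median relative log2 fold change was -0.10 for vehicle against control and -0.02 for siponimod against control. The summed list was at 563.0 to 620.2 TPM in siponimod mice, 266.1 to 606.2 TPM in vehicle mice and 581.9 to 621.0 TPM in control mice, with vehicle mouse 1 the lowest. Its largest members were Tmcc2 and Bnip3l, and Bnip3l encodes a mitophagy receptor used in red-cell maturation and in many other cells. The red-cell membrane and transcription factor genes Slc4a1, Ahsp, Klf1 and Gata1 were not analysed here. Of 9 haem synthesis genes, led by Alas1 (the enzyme of non-erythroid cells) and Urod, 0 were called in any comparison. Of 3 other globin genes, Hbq1a, Cygb (cytoglobin) and Ngb (neuroglobin), 0 were called.

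**Figure D5:**
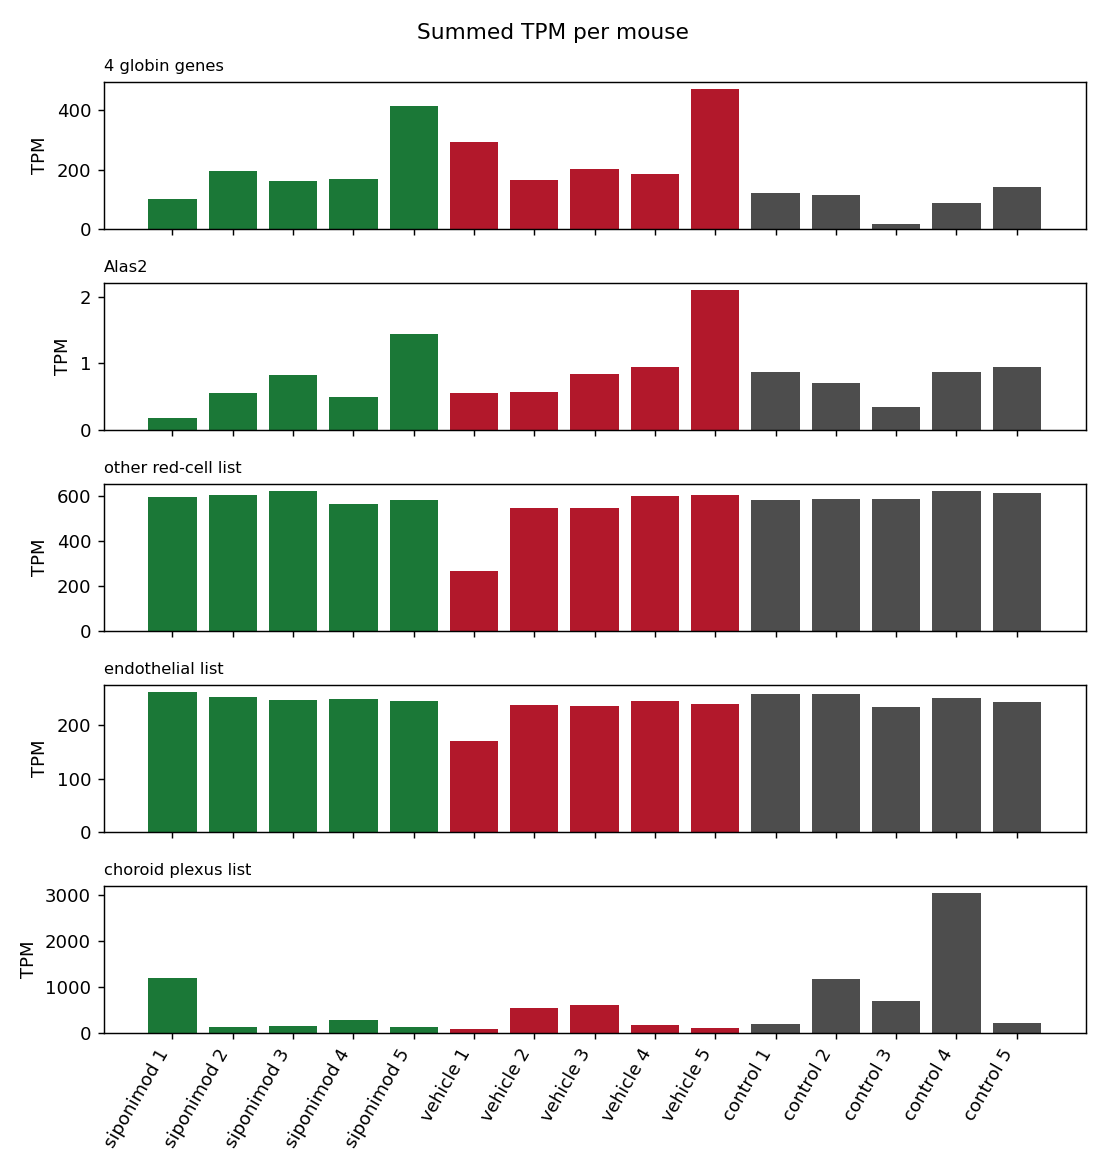
Bars show TPM per mouse (linear axes from 0) for the 4 globin genes summed, Alas2, the list of other red-cell genes, the brain endothelium list and the choroid plexus list, with siponimod mice in green, vehicle mice in red and control mice in grey. Globin sums vary from 15.4 to 470.6 TPM, while the red-cell and endothelial lists are level except in vehicle mouse 1, and the choroid plexus list peaks in control mouse 4.

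Among 13 tested genes for uptake, export and breakdown of haem and haemoglobin, Hmox1 was the single call with all mice. Hmox1, haem oxygenase 1, which opens the haem ring, had 9.09 to 17.8 TPM in siponimod mice, 7.10 to 33.1 TPM in vehicle mice and 3.15 to 4.07 TPM in control mice. It was higher in vehicle than in control mice by 1.89 relative log2 (limma adjusted p = 0.00896) and in siponimod than in control mice by 1.59 (limma adjusted p = 0.0178). Vehicle mouse 5, highest for globin in unscaled TPM, was also the highest of all mice for Hmox1 at 33.1 TPM. Control mouse 3, lowest for globin, had 3.53 TPM, within the range of the other control mice. With vehicle mouse 1 and siponimod mouse 1 left out, limma also called Hpx (haemopexin, which binds free haem) higher by 0.67 (adjusted p = 0.0425) and the haem transporter Slc48a1 lower, at -0.21 (adjusted p = 0.0366), in vehicle than in control mice. Both were named because that setting called them.

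Markers of vessels and of other blood cells were examined beside the globins. Limma called 0 of 12 endothelial genes and 0 of 10 genes of pericytes and vascular smooth muscle in any comparison with all mice. Without vehicle mouse 1 and siponimod mouse 1, 3 endothelial genes were called: Cldn5, a tight junction gene, at -0.40 for vehicle against control (limma adjusted p = 0.00145), and for siponimod against control Slco1a4, an anion transporter, at -0.34 (adjusted p = 0.0264) and Ly6c1, a surface antigen, at 0.26 (adjusted p = 0.0155). The endothelial list summed to 245.2 to 261.8 TPM in siponimod mice, 170.9 to 244.7 TPM in vehicle mice and 233.4 to 259.0 TPM in control mice. Of the neutrophil, lymphocyte and platelet lists 2 of 14, 6 of 16 and 6 of 12 genes were tested and 0 were called, and S100a8, S100a9 and Ppbp were not analysed here. The list for choroid plexus, the vascular tissue of the brain's ventricles, summed to 118.7 to 1189 TPM in siponimod mice, 83.8 to 603.4 TPM in vehicle mice and 193.9 to 3033 TPM in control mice. Its highest mouse, control mouse 4, had a globin sum of 88.3 TPM, within the control range, and 0 of its 9 genes were called. The part of these markers in the globin values was not tested further.

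By Spearman's rho over 15 mice with the globin sum, on log2(TPM + 0.5) less the library median, the most similar genes other than the members were Mrpl52 (a mitochondrial ribosome protein) at 0.904 and Hpx at 0.886. Next came Cebpg, Gngt2 and Slc25a39 at 0.882, Mid1ip1 at 0.879, Nlrp6 at 0.871 and Ddit3 at 0.861. Alas2 was at 0.593, rank 705, over all mice, but at 0.918, rank 4, when each mouse was taken as its deviation from its group mean. Without vehicle mouse 1 and siponimod mouse 1 it was at 0.423, rank 2488, and Mrpl52 was at rank 38, Hpx at 15, Cebpg at 73, Gngt2 at 14, Slc25a39 and Mid1ip1 at 65, Nlrp6 at 46 and Ddit3 at 28. For deviations from the group means these genes ranked lower: Mrpl52 was at rank 119, Hpx at 1025 (rho 0.571), Cebpg at 1565 and Gngt2 at 207. Slc25a39 was at 626, Mid1ip1 at 348, Nlrp6 at 170 and Ddit3 at 66. Hpx was at 1.20 ± 0.168 TPM in siponimod mice, 1.29 ± 0.301 TPM in vehicle mice and 0.649 ± 0.197 TPM in control mice (SD, n = 5 each). All these values come from the same libraries and are descriptions.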

How the data were processed

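Brain RNA from 15 mice was depleted of ribosomal RNA and made into stranded libraries, per the labels' protocols. A heading in the deposited files speaks of 3 prime mRNA analysis, and this conflict was not resolved. The submitters' processing notes list Salmon 1.4.0, STAR 2.6.1d, Trim Galore 0.6.6 and bcl2fastq with mm10. These notes give no order of steps, annotation or strand setting.

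Each pair of groups has a table from the authors (3 in all) with TPM per mouse, identical wherever a mouse is in more than 1 table. The tables also hold the authors' log2 fold change with its standard error, a test statistic (a score), a p-value with its adjusted p-value, and a mean level (a signal on an unstated scale), per the file headers. TPM keep no depth, so read depth is unknown and precision rests on the spread between mice.

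Limma 3.58.1 (R 4.3.3) was fitted to log2(TPM + 0.5) for genes above 0.5 TPM in at least 5 mice, with all 3 groups in 1 model, a trended empirical Bayes prior and a Benjamini-Hochberg threshold of 0.05 over all 17714 genes. The branch of the design for counts was not used, since the files hold TPM. Fold changes are relative to the median gene, and their 95% intervals are moved by the same shift. The limma p-values are not: they test the fold changes before the shift. Sums and ratios were compared with exact two-sided permutation tests on log2 values. Genes outside the members are named by rule: from each list of 15 cell types and pathways the called genes and those with the highest mean TPM, and the 8 genes most like the globin sum. The 5 genes and the lists were chosen with earlier results of these data known. Positions are from GENCODE M21, promoters from RefSeq. The fit was tested on simulated data. Sums, ratios and sequences were handled in Python 3.11.15 (scipy 1.17.1, numpy 2.4.6, pandas 2.3.3). Alternatives were other pseudocounts, no filter, other scalings, other models, a mouse-number block and each mouse left out.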

Additional observations from a re-analysis of the deposited data

Results flagged for a closer look

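Across 27 groups of 5 values (each gene, sum and ratio in each group), 7 had a highest mouse that stood apart from the other 4, with a gap to the next mouse of more than 0.71 of the group's range. For normally distributed values chance gives such a gap in about 1 of 20 groups. TPM and ratios were used here without a log, so that rate may not hold for them. The 7 are also not independent because the genes move together. All 7 were the mouse numbered 5. In siponimod mice these were Hba-a1 at 64.3 TPM (next 28.7 TPM), Hbb-bs at 171.2 TPM (next 76.8 TPM), Hbb-bt at 19.6 TPM (next 8.12 TPM) and the beta sum at 190.8 TPM (next 84.9 TPM). In vehicle mice these were Hba-a2 at 188.8 TPM (next 97.3 TPM), Alas2 at 2.10 TPM (next 0.939 TPM) and the alpha sum at 263.4 TPM (next 138.6 TPM). These flags are for unscaled TPM. With libraries scaled to a common median gene, vehicle mouse 1 was above vehicle mouse 5 for Hba-a2 (207.9 against 173.8 TPM) and the alpha sum (296.2 against 242.4 TPM).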

How the results depend on the processing

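Limma called no member in any comparison under 24 of 25 alternatives. The exception was the mouse-number block, where Hbb-bt in vehicle against control mice had an adjusted p of 0.0434 at the same 1.94, where 52 of 17714 genes were called higher. Pairing by mouse number was not established: 15 same-number correlations of deviations ran from -0.0552 to 0.201, with 2 above 0.1. In 5 of these 15 pairs the own number matched best. The block left the sum differences in vehicle against control mice at 1.62 (alpha) and 1.72 (beta), with p of 0.0625, the smallest it allows in an exact permutation test. Without vehicle mouse 1 and siponimod mouse 1 they were 1.61 and 1.59 (exact adjusted p = 0.0536), and without control mouse 3 as well, chosen after seeing the data, 1.05 and 0.98 (exact adjusted p = 0.0643). Leaving out 1 mouse at a time gave 1.06 to 1.83 (alpha) and 1.10 to 1.95 (beta). The ratio of alpha to beta, small in all comparisons, changed sign in vehicle against control mice at 0.0114 and 0.0721 without those 2 or 3 mice and ranged from -0.159 to 0.0114 without 1 mouse. In siponimod against vehicle mice it was 0.0147 with Hba-a1 and Hbb-bs alone and -0.122 to 0.0457 without 1 mouse. Alas2 in siponimod against control mice turned to 0.0638 without siponimod mouse 1, with or without vehicle mouse 1, and ranged from -0.329 to 0.0638 without 1 mouse. Genes called in vehicle against control mice numbered 220, but 424 with libraries scaled to a common median, 768 and 681 without those 2 or 3 mice, and 128 to 652 without 1 mouse, the highest without vehicle mouse 1. In siponimod against control mice they numbered 132, but 204, 352 and 368 under the same settings, 508 with only the groups compared, and 82 to 492 without 1 mouse. The scaling to a common median moved the share of higher calls in vehicle against control mice to 244 of 424, against 75 of 220 unscaled. The cause of these shifts was not tested.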
